A study of Mus musculus with 26 samples.

Results

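Alpha and beta tubulin are the 2 subunits of the microtubule, and the mouse encodes each of them in several genes called isotypes. The 8 genes described here are the beta isotypes Tubb2a, Tubb4b, Tubb5 and Tubb6 and the alpha isotypes Tuba1a, Tuba1b, Tuba1c and Tuba4a, out of 13765 genes in the deposited table. They were picked by symbol, and selected on levels in these same pools that were already known, so their differences between tissues are given as a description without a test. Of the 8 genes, 7 passed the filter on low values (at least 100 in at least 4 pools) and Tubb6 did not.

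The samples were CD4+CD8+TCRb- cells, the double positive (DP) stage of thymocyte development, sorted from the aortic arch, the mediastinal adipose tissue and the thymus of female C57BL/6J mice at 8 weeks. No treatment or further allele is given for any group. Each pool joined the tissue of 5 mice, and each tissue had 4 pools, read in 9 arch, 8 adipose and 9 thymus libraries. Each library came from the lysate of 200 sorted cells, and its reads were 50 bases long. The labels describe digestion for arch and adipose tissue and not for thymus, so tissue and digestion cannot be told apart.

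Pools held 11577253 to 34599519 reads. Arch pools 2 and 4 and adipose pool 1 stood apart by transcripts of cells outside the sort gate: fibroblast markers summed to 3969 CPM (recovered reads, scaled to the same total in every pool) in arch pool 4, smooth muscle markers to 1573 CPM in arch pool 2, and endothelial markers to 277.3 CPM in adipose pool 1. All 15 DP thymocyte markers were detected in every pool, and summed to 13220 to 15600 CPM in arch, 12240 to 20420 CPM in adipose pools and 30350 to 32690 CPM in thymus. Of Cd4, Cd8a, Cd8b1, Rag1 and Ptcra, the sort and identity genes, 3 fell in arch against thymus at a limma adjusted p under 0.05 (Cd4, Cd8a and Cd8b1) and 4 fell in adipose tissue against thymus (all but Cd4). Of 16 tested heat shock genes, 12 rose in arch and 6 in adipose tissue against thymus, and none fell. In arch against adipose tissue, 8 of the 16 rose and none fell. Of all 9106 tested genes, 3.99% rose and 2.58% fell in arch against thymus, and 2.17% and 0.67% in adipose tissue against thymus. In arch against adipose tissue these shares were 0.0988% and 0.0769%. The part of the identity and heat shock shifts in the tubulin values below was not tested.

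Microtubules grow and shrink by adding and losing dimers of 1 alpha and 1 beta chain. They position the centrosome and carry organelles in a resting lymphocyte, and they build the spindle in a dividing one. The isotypes are close to identical in their globular bodies and differ most in an acidic tail at the C-terminus, where motors, severing enzymes and modifying enzymes bind. Cells also sense unassembled tubulin and degrade tubulin messenger RNA on the ribosome, a loop known as autoregulation, in which the protein Ttc5 recognises the nascent chain.

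Since the tail is where isotypes mostly differ, the last 60 coding bases are shown first for the beta transcripts on which the results turn. They run 5′ to 3′ with the stop codon included (GENCODE M21 transcripts, build GRCm38). Capitals mark bases that differ from Tubb2a in a pairwise alignment of the coding sequence.
Tubb2a: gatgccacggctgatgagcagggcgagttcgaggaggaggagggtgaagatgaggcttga
Tubb2b: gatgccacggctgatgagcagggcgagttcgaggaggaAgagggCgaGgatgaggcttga
Tubb5: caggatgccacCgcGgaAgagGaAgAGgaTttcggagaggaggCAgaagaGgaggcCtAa
Tubb4b: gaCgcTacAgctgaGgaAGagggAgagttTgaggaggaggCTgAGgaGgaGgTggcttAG
Tubb2b differed from Tubb2a at 3 of these 60 bases, Tubb5 at 13 and Tubb4b at 17. The 3 Tubb2b differences lie at the third base of a codon and leave the encoded amino acids unchanged. Tubb5 also lacked 3 bases that Tubb2a has in the aligned stretch, which capitals do not mark.

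The same likeness limits what a 50-base read can say. Across the whole coding sequence, Tubb2a and Tubb2b were 96.5% identical, with 47 differing bases of which 44 lay at the third base of a codon and with a longest identical run of 551 bases. Of all 50-base windows of the Tubb2a transcript, 49.6% also occurred in another gene, pseudogenes included, and 45.6% in another tubulin gene. None of its windows outside the coding sequence occurred in any other gene. Tubb5 was close to unique, with 0.115% of its windows found elsewhere. The Tuba1 genes were the least distinct: 83.1% of Tuba1b windows, 75.5% of Tuba1a windows and 61.0% of Tuba1c windows occurred in another gene, against 48.8% of Tuba4a windows. How reads that match several genes were counted is not given in the sources used here, so the division of counts between Tubb2a and Tubb2b, and among Tuba1a, Tuba1b and Tuba1c, is uncertain.

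**Figure D1:**
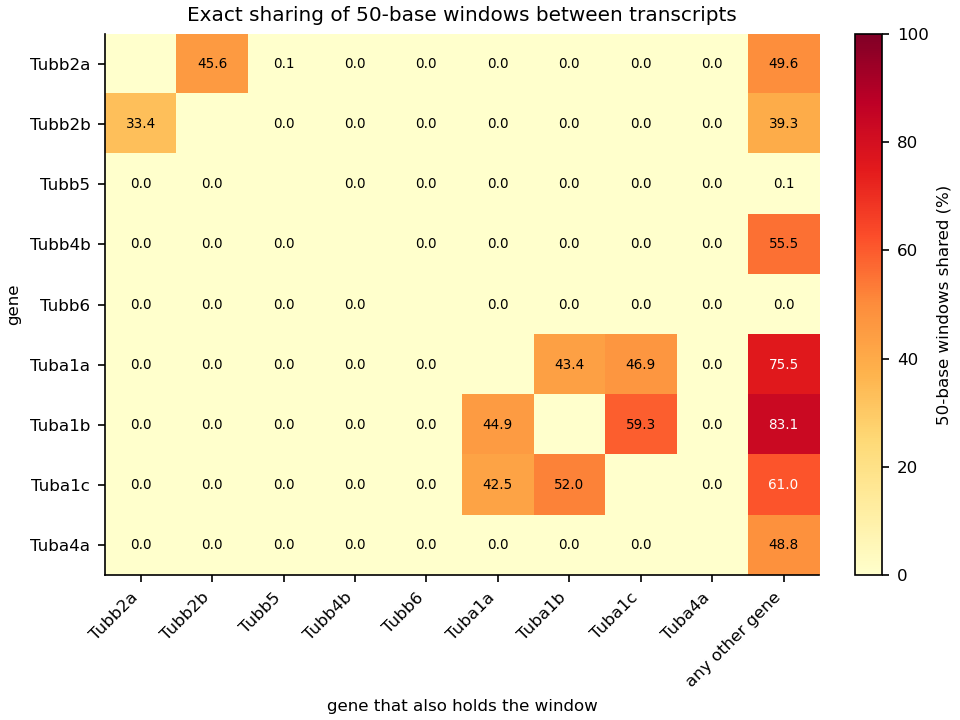
Share of the 50-base windows of each tubulin transcript (rows) that occur exactly in the transcripts of another gene (columns), in percent; the last column counts any other gene, pseudogenes included. Sharing is high between Tubb2a and Tubb2b and among Tuba1a, Tuba1b and Tuba1c, whereas Tubb5 and Tubb6 share almost nothing.

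Tubb2a, a beta isotype best known from neurons, was the listed gene that stood far higher in DP sorts from both tissues outside the thymus. It is encoded on the minus strand at chr13:34074274-34078007 (GENCODE M21, GRCm38). Its normalised read counts were 20038, 18862, 15348 and 18590 in the arch pools, 26214, 20187, 20757 and 24474 in the adipose pools, and 1438, 1940, 2344 and 4375 in the thymus pools. The lowest arch or adipose pool was above the highest thymus pool, and every adipose pool was above every arch pool. Means were 18210 ± 2008 in arch, 22908 ± 2910 in adipose pools and 2524 ± 1288 in thymus (SD over n = 4 pools). These means put Tubb2a 7.21-fold higher in arch and 9.08-fold higher in adipose tissue than in thymus. On the log2(normalised read count + 20) scale the change against thymus was 2.96 ± 0.27 in arch and 3.29 ± 0.27 in adipose tissue (limma estimate ± standard error), and arch against adipose was -0.33 ± 0.27. Leaving out each pool in turn gave 2.73 to 3.26 for arch and 3.06 to 3.59 for adipose tissue. In bulk sorts like these, fewer cells with the transcript and less transcript per cell cannot be told apart.

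The thymus pools differed most among themselves: the coefficient of variation of Tubb2a was 11% in arch and 12.7% in adipose tissue, against 51% in thymus. The highest and the lowest arch values (20038 and 15348, pools 1 and 3) stood beside fibroblast marker sums of 14.3 and 0.0753 CPM. The values in arch pools 2 and 4 (18862 and 18590) stood beside sums of 102.2 and 3969 CPM. Arch pool 2 also had 1573 CPM of smooth muscle and 972.9 CPM of macrophage and monocyte markers. Adipose pool 1, the highest of all pools (26214), had 277.3 CPM of endothelial and 253.1 CPM of macrophage and monocyte markers. Adipose pool 4, the next highest (24474), had 86.05 and 0 CPM of these. The part of such cells in the Tubb2a values was not tested.

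Tubb2b, its neighbour at chr13:34126748-34130466 on the same strand, is not among the 8 genes and was tested. Its list was drawn up with earlier results of these data known, and its p-values carry that limit. Of its windows, 33.4% also occur in Tubb2a, so Tubb2a reads counted as Tubb2b cannot be told apart there. Tubb2b rose in DP sorts from both tissues. Its normalised read counts were 1129, 2199, 1490 and 2777 in the arch pools, 1158, 1160, 2144 and 2205 in the adipose pools, and 140, 530, 221 and 378 in the thymus pools. No arch or adipose pool overlapped the thymus pools, while arch and adipose pools overlapped each other. The log2 change was 2.58 ± 0.55 in arch against thymus (limma, adjusted p = 0.00753 over 9106 genes) and 2.41 ± 0.55 in adipose tissue against thymus (limma, adjusted p = 0.0194). Arch against adipose tissue gave 0.17 ± 0.55 (limma, adjusted p = 0.939). Without arch pools 2 and 4 the arch change was 2.12 with a limma adjusted p of 0.1003. The adipose call was lost without adipose pool 3 (limma adjusted p = 0.0892), adipose pool 4 (0.0948) or thymus pool 1 (0.0564).

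Counts for Tubb2b were 5.64 to 14.9% of those for Tubb2a in arch, 4.42 to 10.3% in adipose pools and 8.64 to 27.3% in thymus. Their sum does not depend on how shared reads were divided between them, although reads left out for matching both would be missing from it. That sum was 21168, 21061, 16838 and 21367 in the arch pools, 27372, 21347, 22901 and 26679 in the adipose pools, and 1579, 2470, 2565 and 4753 in the thymus pools. The summed values again left a wide gap between the thymus pools and all others.

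The 250 bases before the start of Tubb2a are shown beside those of Tubb5, whose level did not separate the tissues (RefSeq, GRCm38.p6, minus strand, chr13:34078009-34078258 and chr17:35838302-35838551, 5′ to 3′). Capitals mark matches on either strand to the motifs searched, which were the heat shock element core GAANNTTC, the cAMP response element TGACGTCA, the AP-1 site TGANTCA, the CCAAT box CCAAT, the GC box GGGCGG and the TATA box TATAAA.
Tubb2a: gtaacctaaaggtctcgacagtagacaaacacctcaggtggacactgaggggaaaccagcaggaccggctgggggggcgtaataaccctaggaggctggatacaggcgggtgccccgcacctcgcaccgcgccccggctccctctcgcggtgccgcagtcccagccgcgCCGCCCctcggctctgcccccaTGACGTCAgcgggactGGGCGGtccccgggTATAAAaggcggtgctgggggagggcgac
Tubb5: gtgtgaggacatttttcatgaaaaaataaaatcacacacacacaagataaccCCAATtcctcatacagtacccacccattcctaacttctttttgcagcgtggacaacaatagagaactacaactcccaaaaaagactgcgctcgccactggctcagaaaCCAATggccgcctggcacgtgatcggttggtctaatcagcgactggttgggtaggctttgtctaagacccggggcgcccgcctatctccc
The Tubb2a window held TGACGTCA 59 bases before the start, GGGCGG 81 and 43 bases before it and TATAAA 29 bases before it. Promoters were found for 7 of the 8 genes, and of these 7 the Tubb2a window alone held TGACGTCA or TATAAA. Among 32851 promoter windows of the same length, 1.55% held TGACGTCA and 12.4% held TATAAA. None of the 7 windows held GAANNTTC or TGANTCA, which occurred in 6.69% and 6.75% of all windows. The windows end at RefSeq starts. By GENCODE M21 coordinates the Tuba4a window lies wholly inside its gene, and the Tuba1a and Tuba1b windows mostly so. Tubb5 held CCAAT at 198 and 90 bases before its start, and Tubb4b held 5 copies of CCAAT, a motif found in 33.9% of all windows. Tuba1b and Tuba4a each held 2 copies of GGGCGG, which occurred in 32.7% of all windows. No motif overlapped another in the Tubb2a window.

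Tubb5 is the main beta isotype of lymphocytes and other dividing cells. Its normalised read counts were 46016, 28521, 39169 and 42288 in the arch pools, 29918, 49019, 50257 and 35341 in the adipose pools, and 45067, 33028, 46528 and 36503 in the thymus pools. The 3 tissues overlapped throughout. Means were 38999 ± 7525 in arch, 41134 ± 10080 in adipose pools and 40282 ± 6553 in thymus (SD over n = 4 pools). Its log2 change was -0.05 ± 0.19 in arch and 0.01 ± 0.19 in adipose tissue against thymus, and -0.07 ± 0.19 in arch against adipose tissue.

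Tubb4b, a broadly expressed beta isotype also found in cilia, varied more between pools than between tissues. Its normalised read counts were 9091, 3416, 7301 and 5449 in the arch pools, 5278, 13956, 10142 and 8926 in the adipose pools, and 9263, 7898, 6680 and 5667 in the thymus pools. Arch, adipose and thymus pools overlapped, and the widest spread was between adipose pools 1 and 2. The log2 change was -0.29 ± 0.32 in arch and 0.32 ± 0.32 in adipose tissue against thymus, and -0.61 ± 0.32 in arch against adipose tissue. Without arch pools 2 and 4 the arch change against thymus was 0.17. Other genes held 55.5% of the Tubb4b windows, mainly the pseudogenes Tubb4b-ps1 (43.6%) and Tubb4b-ps2 (18.2%). The other tubulin genes, pseudogenes not counted, held 0 of them.

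**Figure D2:**
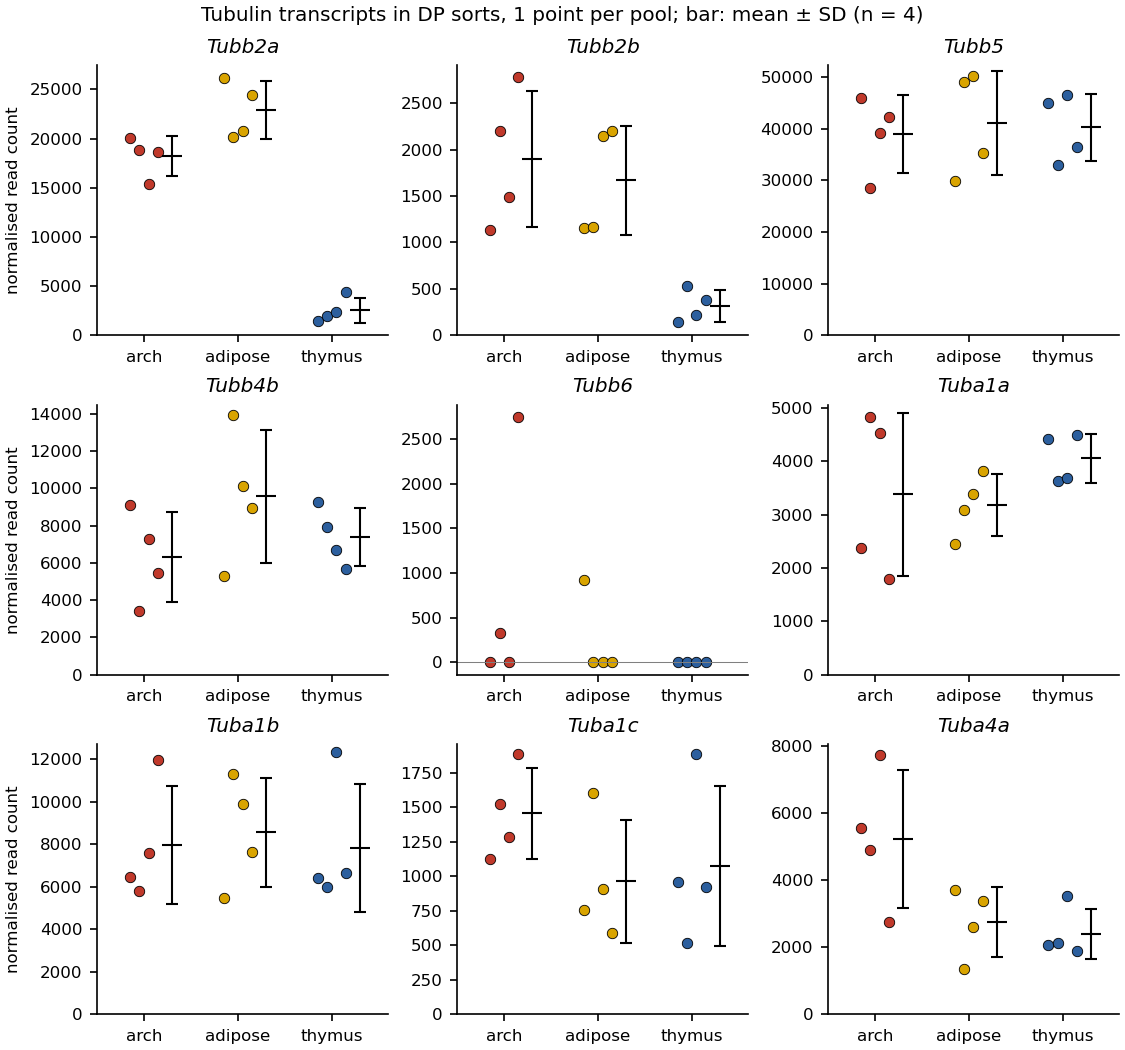
Normalised read counts of the 8 listed tubulin genes and Tubb2b in DP sorts from arch, adipose tissue and thymus, 1 point per pool, with a bar for the mean ± SD of 4 pools (no bar for Tubb6, which was at 0 in most pools). Tubb2a lies between 15348 and 26214 in all arch and adipose pools and between 1438 and 4375 in thymus, Tubb2b shows the same gap, and the other genes overlap between tissues.

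Tubb6, a beta isotype known from mesenchymal and muscle cells, was present in a few pools of arch and adipose tissue and close to absent from thymus. It lies at chr18:67390717-67402749 on the plus strand. Its normalised read counts were 1.63, 329, 0 and 2746 in the arch pools, 919, 0, 0 and 0 in the adipose pools, and 0, 0.75, 0 and 0 in the thymus pools. Behind these values stood 2, 173, 0 and 1766 reads in arch, 1581 reads in adipose pool 1, and 1 read in thymus pool 2. In pools at 0, the 3 reads that a count of 0 allows equal a normalised read count of up to 2.42 in arch pool 3, 2.07 to 4.36 in the adipose pools and 1.70 to 4.37 in the thymus pools.

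The pools with nearly all Tubb6 reads were those that stood apart by markers of cells outside the gate. Arch pool 4 had 3969 CPM of fibroblast markers, with 0 of the 10 markers at 0 and smooth muscle markers at 0.560 CPM. Arch pool 2 had 1573 CPM of smooth muscle markers, 972.9 CPM of macrophage and monocyte markers and 102.2 CPM of fibroblast markers. Adipose pool 1 had 253.1 CPM of macrophage and monocyte markers, 249.2 CPM of B cell markers, 169.0 CPM of adipocyte markers and 104.0 CPM of fibroblast markers. In the other pools fibroblast markers summed to 0.0753 to 14.3 CPM in arch, 0.168 to 19.96 CPM in adipose pools and 0 to 3.83 CPM in thymus, with 7 to 10 of the 10 at 0. Smooth muscle markers were measured for 6 of 8 genes and macrophage and monocyte markers for 9 of 10. The part of these cells in the Tubb6 values was not tested.

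**Figure D3:**
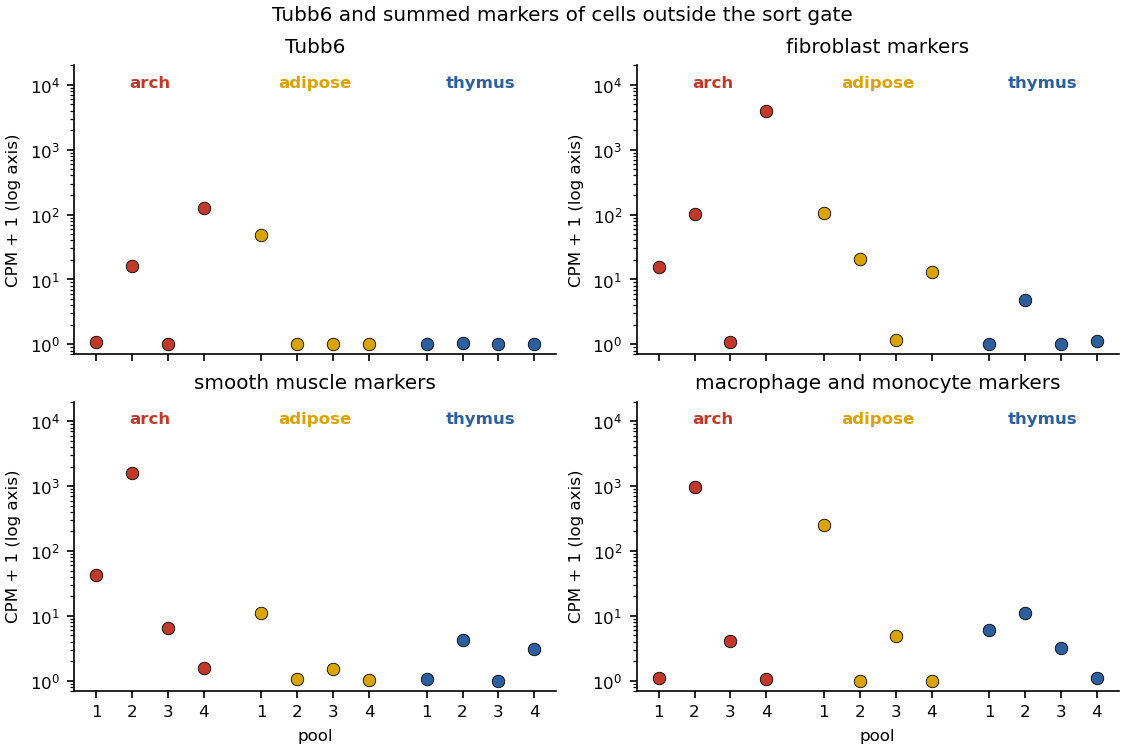
Level of Tubb6 and summed levels of fibroblast, smooth muscle, and macrophage and monocyte markers in each pool, in CPM + 1 on a log axis, 1 point per pool. Arch pools 2 and 4 and adipose pool 1 hold nearly all Tubb6 reads and the highest sums of at least 1 of these marker lists in their tissue.

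Among the alpha genes, Tuba1b, the most abundant alpha isotype of dividing cells, did not separate the tissues. Its normalised read counts were 6456, 5779, 7610 and 11950 in the arch pools, 5452, 11289, 9905 and 7627 in the adipose pools, and 6434, 5967, 12333 and 6626 in the thymus pools. The ranges of the tissues overlapped, and the highest values were in thymus pool 3 and arch pool 4. Its log2 change was 0.03 ± 0.30 in arch and 0.14 ± 0.30 in adipose tissue against thymus, and -0.11 ± 0.30 in arch against adipose tissue.

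Tuba1a, the alpha isotype known from developing neurons, had 2367, 4833, 4536 and 1799 normalised read counts in the arch pools, 2446, 3092, 3395 and 3813 in the adipose pools, and 4419, 3634, 3681 and 4491 in the thymus pools. The thymus pools lay close together, and the arch pools spread on both sides of them. The log2 change was -0.37 ± 0.33 in arch and -0.36 ± 0.33 in adipose tissue against thymus, and -0.02 ± 0.33 in arch against adipose tissue.

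Tuba1c was the lowest of the alpha genes of the list in every tissue per kilobase of transcript. It had 1125, 1524, 1287 and 1884 normalised read counts in the arch pools, 756, 1605, 904 and 585 in the adipose pools, and 962, 519, 1888 and 926 in the thymus pools. The tissues overlapped. Its log2 change was 0.55 ± 0.51 in arch and -0.11 ± 0.51 in adipose tissue against thymus, and 0.66 ± 0.51 in arch against adipose tissue.

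Tuba4a, an alpha isotype known from muscle and platelets, had 5536, 4883, 7728 and 2735 normalised read counts in the arch pools, 3707, 1354, 2602 and 3364 in the adipose pools, and 2058, 2117, 3518 and 1885 in the thymus pools. Arch pools 1, 2 and 3 were above every adipose and thymus pool, and arch pool 4 lay within their range. Means were 5220 ± 2056 in arch, 2757 ± 1043 in adipose pools and 2394 ± 755 in thymus (SD over n = 4 pools), a 2.18-fold higher mean in arch than in thymus. The log2 change was 1.07 ± 0.38 in arch and 0.15 ± 0.38 in adipose tissue against thymus, and 0.92 ± 0.38 in arch against adipose tissue. The 3' part of Tuba4a lies over Stk16, a kinase gene on the other strand (chr1:75210838-75215606), and 47.7% of Tuba4a windows also match Stk16. Stk16 averaged 2120 ± 1054 in arch, 1947 ± 566 in adipose pools and 1893 ± 623 in thymus. Whether the counting used strand is not given in the sources used here, so reads from the overlap cannot be told apart.

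In the fit across all 9106 genes, the test called 363 genes (3.99%) up and 235 (2.58%) down in arch relative to thymus, 198 (2.17%) up and 61 (0.67%) down in adipose tissue relative to thymus, and 9 (0.0988%) up and 7 (0.0769%) down in arch relative to adipose tissue. Of the 7 tested genes of the list, Tubb2a was past the threshold of adjusted p under 0.05 against thymus in both tissues and none in arch against adipose tissue. Tuba4a was not past it in this fit. In arch against thymus it was past it in 1 of 10 alternatives (DESeq2) and in 1 of 12 limma fits that left out 1 pool. That limma fit left out arch pool 4, the lowest arch pool for Tuba4a (log2 change 1.35). The 12 fits gave 0.85 to 1.35 for Tuba4a in arch against thymus. Pool values did not overlap for 13.2% of all genes in arch against thymus, 10.5% in adipose tissue against thymus and 5.35% in arch against adipose tissue; among the 7 this held for Tubb2a alone in each comparison. Since the 7 genes were selected on these contrasts, their counts and their places beside the threshold are a description and no test. The median log2 change of the 7 was 0.03, 0.14 and -0.07 in these comparisons, and that of all tested genes was -0.20, -0.01 and -0.17.

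Levels of different genes were compared per kilobase of transcript. If reads that match several genes were left out or counted repeatedly, genes with many shared windows would be affected most. Such windows make up 83.1% for Tuba1b, against 0.115% for Tubb5. The order, shares, sums and ratios below carry this limit. Tubb5 and Tubb2a were the highest of the 8 in arch (14722 ± 2841 and 11310 ± 1248 normalised read counts per kilobase) and in adipose tissue (15528 ± 3805 and 14229 ± 1808), and their pools overlapped in both tissues. In thymus Tubb5 (15206 ± 2474) was above all others without overlap, and Tubb2a (1568 ± 800) overlapped the neighbours in order, Tuba1a (2250 ± 256) and Tuba4a (843.0 ± 266). Tubb4b and Tuba1b overlapped each other in all 3 tissues (SD, n = 4 throughout).

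Tubb2a made up 36.4 ± 6.07% of beta tubulin transcripts per kilobase in arch, 39.4 ± 9.21% in adipose pools and 7.45 ± 4.17% in thymus. The share of Tubb5 was 46.5 ± 3.52% in arch, 41.7 ± 6.24% in adipose pools and 70.2 ± 4.18% in thymus. The share of Tubb4b was 12.3 ± 3.82% in arch, 16.0 ± 4.61% in adipose pools and 21.5 ± 4.38% in thymus. Shares sum to a fixed whole, so a higher share of Tubb2a lowers the others even where their levels do not move.

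Summed beta tubulin was 36025, 25815, 29670 and 34416 normalised read counts per kilobase in the arch pools, 32214, 40538, 39301 and 35139 in the adipose pools, and 23767, 18956, 23302 and 20217 in the thymus pools. All arch and adipose pools were above all thymus pools. Without Tubb2a and Tubb2b the beta sum was 19301 ± 4396 in arch, 21805 ± 5611 in adipose pools and 19847 ± 2840 in thymus, and the tissues overlapped. Summed alpha tubulin was 9069 ± 1318 in arch, 8155 ± 1433 in adipose pools and 8184 ± 2160 in thymus, also with overlap. The ratio of beta to alpha sums was 2.83 to 4.78 in arch, 4.28 to 5.18 in adipose pools and 2.05 to 3.22 in thymus; the adipose pools lay above the thymus pools, and the arch pools overlapped both.

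**Figure D4:**
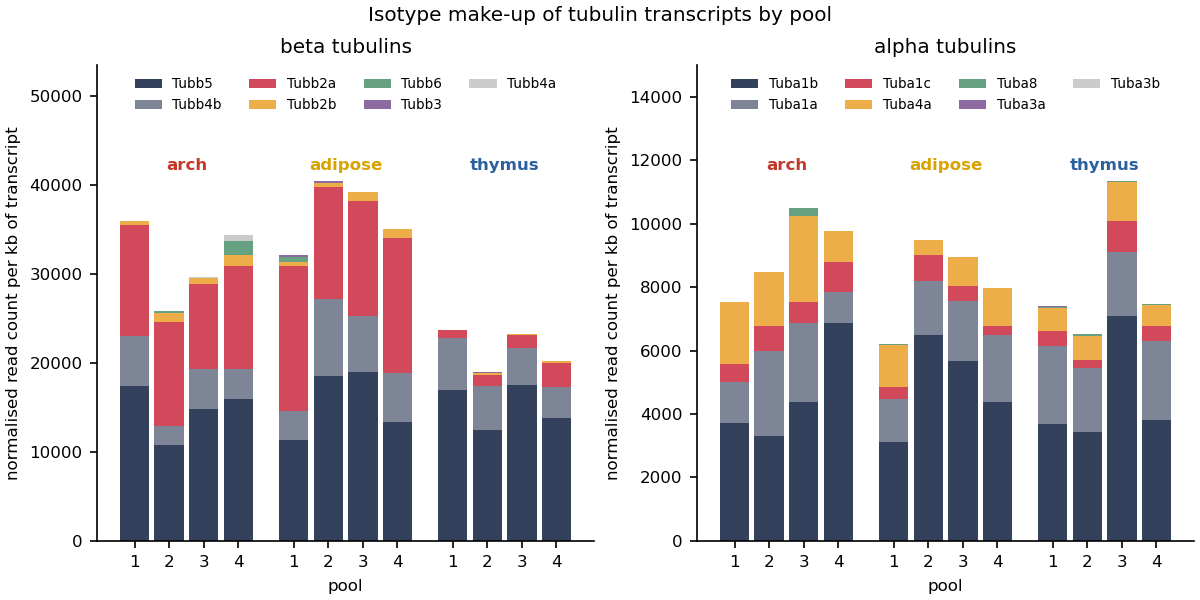
Normalised read counts per kilobase of transcript for each beta isotype (left) and alpha isotype (right), stacked by pool, for arch, adipose tissue and thymus. The Tubb2a layer is broad in every arch and adipose pool and thin in thymus, while the alpha layers vary between pools of the same tissue, with Tuba1b at 39.1 to 70.2% in arch.

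Tuba1b had the highest share of the alpha isotypes in every pool, with 50.0 ± 14.1% of alpha transcripts per kilobase in arch, 59.3 ± 8.18% in adipose pools and 53.9 ± 5.68% in thymus. In arch its share was 49.2, 39.1 and 41.6% in pools 1, 2 and 3 and 70.2% in pool 4. Tuba1a made up 20.8 ± 9.13% in arch, 21.9 ± 3.47% in adipose pools and 28.9 ± 7.34% in thymus. Tuba4a made up 20.5 ± 7.57% in arch, 12.8 ± 6.79% in adipose pools and 10.3 ± 1.13% in thymus. Arch pools ranged from 9.86 to 25.9% for Tuba4a and so overlapped adipose and thymus pools.

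Of the 12 other tubulin genes looked for, 9 were measured and 5 tested, and Tubb2b was the only 1 of the 5 past the threshold. Tubb3, the neuronal beta isotype, had 0 reads in all 4 arch pools, 527, 428, 199.1 and 0 normalised read counts in the adipose pools, and 0, 181.8, 0 and 0 in the thymus pools. Its log2 change in arch against adipose tissue was -3.18 ± 1.13 (limma, adjusted p = 0.383). In adipose tissue against thymus it was 2.34 ± 1.13 (limma, adjusted p = 0.395). Tubb4a, a beta isotype of brain, had 220 and 1472 normalised read counts in arch pools 3 and 4 and 0 in the other 10 pools. Tubg1, the gamma tubulin that starts new microtubules at the centrosome, averaged 859 ± 461 in arch, 2184 ± 875 in adipose pools and 1975 ± 979 in thymus, with a log2 change of -1.31 ± 0.62 in arch against thymus (limma, adjusted p = 0.217). Tubd1, the delta tubulin of centrioles, had reads in 1 arch, 2 adipose and 4 thymus pools (log2 change -3.38 ± 1.25 in arch against thymus, limma adjusted p = 0.114). Tube1, the epsilon tubulin, averaged 7305 ± 1259 in arch, 6410 ± 1971 in adipose pools and 7370 ± 2311 in thymus. Tuba8 was at most 513 in any pool, and Tuba3a and Tuba3b at most 23.2 and 27.7.

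The genes that fold, modify, nucleate and use tubulin mostly did not pass the test. Across 10 lists of such genes, of other tubulins and of actin genes, with 191 tested of 211 measured, 8 rose and 3 fell in arch against thymus, 5 rose and 1 fell in adipose tissue against thymus, and none passed in arch against adipose tissue (10 higher and 12 lower at an unadjusted p under 0.05 by limma, and 0 called by edgeR and 4 by DESeq2). These calls were 4.19% higher and 1.57% lower of the 191 genes in arch, and 2.62% and 0.52% in adipose tissue, beside 3.99% and 2.58%, and 2.17% and 0.67%, of all genes. The median log2 change of the 191 genes was -0.12 in arch and -0.08 in adipose tissue against thymus, beside -0.20 and -0.01 for all genes.

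TRiC is the chaperonin ring in which new tubulin and actin chains fold. Of its 8 subunit genes, Cct4 and Cct6a rose in arch and 6 did not pass, and the median of the 8 was 0.57. Cct4 had 14050, 15754, 14968 and 12670 normalised read counts in the arch pools against 7343, 3884, 8013 and 5665 in the thymus pools, without overlap (log2 change 1.25 ± 0.24, limma adjusted p = 0.00317). Cct6a averaged 4537 ± 1431 in arch and 1963 ± 394 in thymus (1.16 ± 0.32, limma adjusted p = 0.0335), a call kept in 6 of the 12 fits that left out 1 pool. It was lost without arch pool 1, 2 or 3 or thymus pool 1, 2 or 3, with limma adjusted p of 0.0545 to 0.0892. In adipose tissue against thymus 0 of 8 passed by limma, 2 of them higher at an unadjusted p under 0.05, with a median of 0.25.

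The cofactors that carry tubulin to and from the chaperonin showed no call. Of 15 tested prefoldin subunits, tubulin cofactors and relatives, none passed in arch against thymus (1 higher and 3 lower at an unadjusted p under 0.05 by limma) or in adipose tissue against thymus (0 and 0). Of 10 genes of the autoregulation loop, Ttc5 and subunits of the CCR4-NOT deadenylase among them, none passed, and Ttc5 gave -0.15 ± 0.36 in arch and 0.36 ± 0.36 in adipose tissue. None of 10 modifying enzymes, 20 genes of microtubule nucleation or 18 microtubule-associated, plus-end and severing proteins passed in any of the 3 comparisons. At an unadjusted p under 0.05 in arch against thymus, limma had 0 of the modifying enzymes, 1 higher and 3 lower nucleation genes, and 2 higher and 2 lower of the associated proteins.

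Among 33 tested motor genes, Ndel1 and Dctn4 rose in arch and Dctn4 in adipose tissue. Ndel1 binds and regulates the motor dynein, and had 8873, 6028, 10085 and 6987 normalised read counts in the arch pools against 3404, 2037, 2920 and 2730 in the thymus pools (1.52 ± 0.26, limma adjusted p = 0.00122). Dctn4, a subunit of the dynein activator dynactin, averaged 4487 ± 725 in arch, 5827 ± 470 in adipose pools and 2058 ± 868 in thymus. Its log2 change was 1.19 ± 0.30 in arch (limma, adjusted p = 0.0228) and 1.58 ± 0.30 in adipose tissue (limma, adjusted p = 0.00447). The arch call for Dctn4 was lost without arch pool 3 (limma adjusted p = 0.0582), thymus pool 1 (0.0705) or thymus pool 3 (0.0637).

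Of 33 tested spindle and mitosis genes, Kif18a rose in both tissues and Aurkb fell in arch. Kif18a, a kinesin that limits chromosome movements on the spindle, had 4989, 4818, 3604 and 2427 normalised read counts in the arch pools, 853, 2810, 1070 and 1211 in the adipose pools, and 432, 179, 315 and 346 in the thymus pools. Both tissues were above thymus in every pool, by 3.56 ± 0.50 on the log2 scale in arch (limma, adjusted p = 0.000167) and 2.06 ± 0.50 in adipose tissue (limma, adjusted p = 0.0271). The adipose call was lost without adipose pool 2, 3 or 4 or thymus pool 2, with limma adjusted p of 0.0561 to 0.1023. Aurkb, a mitotic kinase, had 386, 0, 917 and 3.11 normalised read counts in the arch pools against 1105, 476, 2867 and 2396 in the thymus pools, with overlap (-3.61 ± 1.07, limma adjusted p = 0.0495). The lowest values were in arch pools 2 and 4, and without both of them the change was -1.19 (limma, adjusted p = 0.412). The Aurkb call was kept in 3 of the 12 fits that left out 1 pool. The median log2 change of the 33 genes was 0.01 in arch and -0.02 in adipose tissue against thymus.

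Actin chains also fold in TRiC before they join filaments, and 4 of 39 tested actin genes moved in arch. Actg1, cytoplasmic gamma actin, averaged 174030 ± 44700 in arch, 126150 ± 16840 in adipose pools and 67875 ± 19610 in thymus. It rose by 1.36 ± 0.20 in arch (limma, adjusted p = 0.000306) and by 0.93 ± 0.20 in adipose tissue (limma, adjusted p = 0.0135). Tpm4, a tropomyosin that coats filaments, rose by 2.08 ± 0.46 in arch (limma, adjusted p = 0.00919) and 2.35 ± 0.46 in adipose tissue (limma, adjusted p = 0.00552). Pfn1, the actin monomer carrier profilin, fell by 0.85 ± 0.19 in arch (limma, adjusted p = 0.01003) and by 0.93 ± 0.19 in adipose tissue (limma, adjusted p = 0.00767). Coro1a, which regulates filament turnover in lymphocytes, had 20160, 8077, 15376 and 10411 normalised read counts in the arch pools against 41425, 32517, 32027 and 38769 in the thymus pools (limma, adjusted p = 0.000393). The adipose call for Actg1 was lost without adipose pool 3 (limma adjusted p = 0.0614), thymus pool 3 (0.0563) or thymus pool 4 (0.0557).

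**Figure D5:**
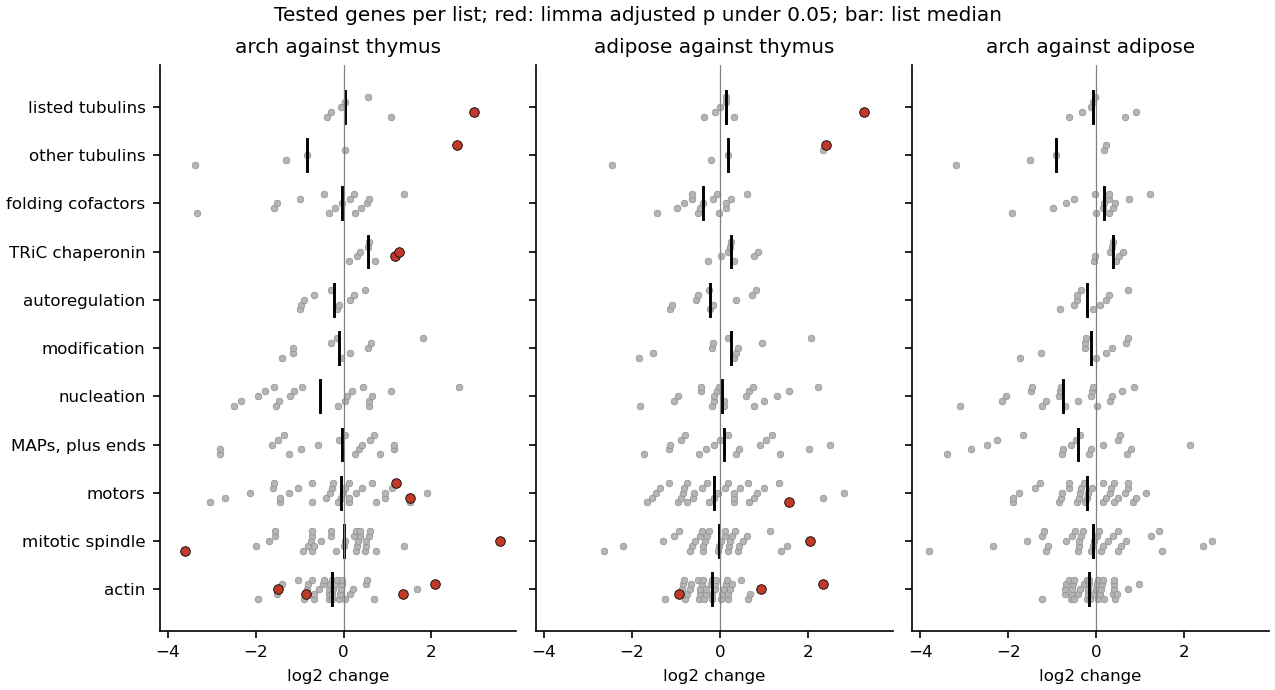
Log2 change of each tested gene, by list, in arch against thymus, adipose tissue against thymus and arch against adipose tissue; grey points did not pass, red points had a limma adjusted p under 0.05, and bars mark list medians. Among the listed and other tubulins, Tubb2a and Tubb2b alone are red, at 2.58 to 2.96 in arch and 2.41 to 3.29 in adipose tissue against thymus. Tubb3 lies close to them in adipose tissue against thymus, at 2.34, and did not pass. No gene is red in arch against adipose tissue.

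Tubb2a did not vary with Tubb5 or Tuba1b across the 12 pools, whereas some of the other listed genes varied together. Pearson's r of log2 values, given as a description over 12 pools that share tissue and normalisation, was -0.10 between Tubb2a and Tubb5, 0.08 between Tubb2a and Tuba1b, 0.71 between Tubb5 and Tuba1b, 0.72 between Tubb5 and Tubb4b and 0.62 between Tuba1b and Tuba1c. For Tubb2a and Tubb2b it was 0.90 over all pools and 0.32 after the mean of each tissue was removed. The pattern most like that of Tubb2a among tested genes was that of Rnf125, a ubiquitin ligase (r = 0.98). Next were Tnfrsf1b, a receptor for tumour necrosis factor (0.97), and Tex2 (0.96). With the mean of each tissue removed, r with Tubb2a was 0.63 for Rnf125, 0.77 for Tnfrsf1b and 0.52 for Tex2.

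Rnf125 had 6654, 11208, 7639 and 4969 normalised read counts in the arch pools, 8297, 9173, 8356 and 12286 in the adipose pools, and 245, 258, 488 and 594 in the thymus pools. Tnfrsf1b had 1131, 1491, 1933 and 3567 in the arch pools, 2635, 951, 1690 and 1972 in the adipose pools, and 1.13, 10.5, 0 and 188 in the thymus pools. In both genes, as in Tubb2a, the highest thymus pool was pool 4 and no arch or adipose pool was as low. Both were picked for a high r with Tubb2a over these same pools, so such likeness is built into the choice. The same holds for their r within tissues. For the other genes the closest patterns were Snx1 for Tubb4b (0.96), Tmem110 for Tubb5 (0.85), Nipsnap1 for Tuba1a (0.90), Banf1 for Tuba1b (0.93), Nop16 for Tuba1c (0.95) and Plekhb2 for Tuba4a (0.89). Stmn1, whose product stathmin binds free tubulin dimers, was second for Tuba1b (0.93).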

How the data were processed

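Per the labels' protocols, polyadenylated RNA of sorted cells was amplified for 18 cycles and read as 50-base single ends. The submitters' processing notes name the build GRCm38, the read check FastQC 0.11.5 and the aligner STAR 2.6.0c. The counting tool, annotation and normalisation method are not stated in any source used here. The authors deposited 1 normalised signal per gene and pool, with libraries of a pool already combined. In each column all values were whole multiples (within 0.01) of the smallest value, which gave recovered reads for 100% of 120369 values; edgeR run on these reads called 365, 212 and 8 genes (arch against thymus, adipose tissue against thymus, arch against adipose tissue).

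Genes with a value of at least 100 in at least 4 pools (9106) were fitted with limma 3.58.1 in R 4.3.3, with an intensity trend, on log2(value + 20), all 12 pools in 1 fit, and p-values were adjusted by Benjamini-Hochberg over all genes. Fold changes of low genes are understated on this scale. limma, edgeR 4.0.16 and DESeq2 1.42.0 were tested on simulated data. The labels do not say that pools came from separate mice, so p-values measure the spread between these pools. Reads carry no molecular identifiers, so floors cover counting error only. CPM values are recovered reads scaled to the same total in every pool. Transcript lengths and windows came from 1 principal GENCODE M21 transcript per gene, promoters from RefSeq GRCm38.p6.

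The 8 genes and all lists were chosen with earlier results of these data known. Named genes were all tubulins, up to 3 called genes per list, direction and comparison with the smallest p, the 3 genes with the highest Pearson r for each listed tubulin, and the sort and identity genes. Alternatives were edgeR, DESeq2, TMM scaling, other pseudocounts, no filter, 2 tissues only, a replicate block and left-out pools. Same-numbered pools did not deviate together (r -0.03 to 0.08, 0 of 12 pairs above 0.1), so pool numbers were not treated as pairs. The coding ends of the alpha genes are not reported here.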

Additional observations from a re-analysis of the deposited data

Results flagged for a closer look

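Of 51 groups of 4 pools (17 tubulin genes in 3 tissues), 14 were flagged. In these, the gap from the highest or lowest pool to the next passed Dixon's 95% limit as a share of the group's range. Chance gives about 1 in 20 for normally distributed values. Many of the flagged groups are not of that kind, being at 0 in all pools but the pool named. Groups at 0 in every pool could not be flagged.

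Among the listed genes, Tubb6 stood apart at 2745.73 normalised read counts in arch pool 4, 918.71 in adipose pool 1 and 0.75 (1 read) in thymus pool 2. Thymus pool 3 was far above the other thymus pools for Tuba1b, at 12332.73, and for Tuba4a, at 3517.6.

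Among the other tubulins, Tubb3 stood apart at 181.77 in thymus pool 2 and Tubb4a at 1472.37 in arch pool 4. Tuba3a stood apart at 5.81 (10 reads) in adipose pool 1, and Tuba3b at 21.81 in arch pool 3 and 27.7 in adipose pool 4. Tuba8 stood apart at 512.82 in arch pool 3 and 88.91 in adipose pool 1. Tubg1 was far below its tissue at 169.47 in arch pool 4, and Tubd1 was found in arch only in pool 3, at 210.78.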

How the results depend on the processing

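In 10 alternatives, the log2 change of Tubb2a was 2.85 to 2.97 in arch and 3.18 to 3.33 in adipose tissue against thymus, and -0.38 to -0.31 in arch against adipose tissue. No called value changed sign. The number of genes called in arch against thymus was 598, and became 365 with edgeR, 1258 with DESeq2, 334 without arch pools 2 and 4, and 345 without these and adipose pool 1. In adipose tissue against thymus it was 259, and 694 with DESeq2. In arch against adipose tissue it was 16, and 8 with edgeR, 300 with DESeq2, 9 with a pseudocount of 5, 2 with no filter, and 0 without arch pools 2 and 4, with or without adipose pool 1. DESeq2 called 18, 10 and 4 genes of the 10 lists in the 3 comparisons, against 11, 6 and 0. The cause was not tested.

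Leaving out each pool in turn gave 404 to 620, 169 to 317 and 2 to 17 genes called, and 8 to 15, 3 to 7 and 0 to 0 genes of the lists. The share of calls that were higher in arch against thymus was 60.7% and became 76.2% (278 higher, 87 lower) with edgeR; in arch against adipose tissue it was 56.2% and became 40.7% with DESeq2 (122 higher, 178 lower). Pool number as a replicate block gave 608, 243 and 12 genes called and 12, 5 and 0 of the lists. With the block, Cct6a in arch (limma adjusted p = 0.0513) and Kif18a in adipose tissue (0.0517) lost their calls. Aurkb in arch also lost its call with edgeR (adjusted p = 0.452), DESeq2 (0.257), TMM scaling (0.0529), a pseudocount of 5 (0.0673), no filter (0.117) and the 2 tissues alone (0.123). In the 2 tissues alone, Cct6a (0.0711) and Dctn4 (0.0687) in arch and Kif18a (0.0810) in adipose tissue were also lost, and Actg1 in adipose tissue was lost with no filter (0.0595).

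Depth sets a floor of 3 reads per pool, 1.70 to 5.71 normalised read counts, which bears on Tubb6, Tubb3 and Tubb4a. Read length bears on the alpha genes and on Tubb2a with Tubb2b, as their transcripts share windows as long as a read.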
